A study of Mus musculus with 24 samples.

Results

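The SOCS family and growth hormone signalling were followed through 10 genes across the 4 groups of the study: Socs1 to Socs7, Cish, the growth hormone receptor gene Ghr and Stat5b. They were selected by symbol, and the choice used the Socs2 values of these same mice (a lower level in the cold and a higher level under the BATdKO label), so that Socs2 is described here without a test. Of the 10 genes, 9 were in the count table of 12615 genes and 9 passed the filter on low counts, which left 12485 genes tested. Socs1 was not analysed here. The study sequenced 3′ tags of RNA from the brown adipose tissue (BAT) of 24 animals, 6 in each group. Both genotypes were C57BL6/N mice with floxed alleles of Tbl1xr1 (which encodes the corepressor TBLR1) and Tbl1x (TBL1), all were given tamoxifen, and the experiment was run 3 weeks after the last dose. BATdKO mice also carried a tamoxifen-inducible Cre recombinase under the Ucp1 promoter, which acts in brown adipocytes and leaves the genes intact in the other cells of the depot, and Cre- mice lacked it. The mice were raised at 22°C and then kept for 4 days at 30°C or, after stepwise cooling, for 6 days at 8°C by the labels, where the study's text gives 3 days at the lowest temperature. The labels give female mice and tamoxifen at 5 years of age, while the study's text gives males and weeks. The study's text also gives fewer mice per group than the labels and removed outliers that it does not name, so all 24 labelled mice were used. Mice are called m1 to m6 within each group.

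Growth hormone binds a receptor that works through the kinase JAK2, which phosphorylates the transcription factors STAT5A and STAT5B. STAT5 then switches on genes such as Igf1, Cish and Socs2. SOCS proteins and CIS (the product of Cish) carry an SH2 domain, with which they bind phosphorylated receptors or kinases, and a SOCS box, with which they recruit a ubiquitin ligase built on elongins and cullin 5. They thereby restrain the pathway that induced them. Liver is the best known target organ of growth hormone, and adipose tissue also carries the receptor.

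Both floxed genes were higher, not lower, under the BATdKO label. At 8°C, Tbl1xr1 was at 39.8 ± 4.01 CPM (SD over 6 mice) with the BATdKO label and at 20.9 ± 2.24 CPM with the Cre- label, with a log2 fold change of 0.93 ± 0.17 (SE, adjusted p = 0.0035, edgeR quasi-likelihood test). The gap for Tbl1x was smaller (0.39 ± 0.10, adjusted p = 0.063). Tags come from the 3′ end of a transcript, and whether the deleted part reaches it is not given in the sources used here, so these values do not check the deletion. CPM are tags scaled to the library size normalized by edgeR's TMM method, per 1000000 counts. At 30°C, Tbl1xr1 ranged from 16.4 to 24.6 CPM in m1 to m5 labelled Cre- and from 29.8 to 42.0 CPM in m1 to m5 labelled BATdKO, but m6 labelled Cre- had 38.6 CPM and m6 labelled BATdKO 17.0 CPM. Both m6 libraries at 30°C thus lay in the range of the other label. Values of Socs2 that rest on them are given with and without them. The warm and the cold libraries also carry identifiers of separate consecutive runs, so that temperature and library series cannot be told apart.

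The tissue label was checked against markers. Ucp1, the uncoupling protein of brown adipocytes, ranged from 28.9 to 548 CPM in the libraries labelled Cre- at 30°C and from 968 to 2076 CPM in those at 8°C. All 10 brown adipocyte markers were detected, with a summed share of 0.057% to 0.341% of the counts. In the cold, 5 of them passed an adjusted p of 0.1 as higher and 1 (Adipoq) as lower under each label. For genotype at 8°C, 0 passed as higher and 1 (Adrb3) as lower. The shares of all genes past this threshold are given with the members below. All 8 hepatocyte markers were detected in every group with a summed share of 3.05% to 4.50%, and Alb (albumin) alone reached 5686 to 14390 CPM. In the 4 groups the hepatocyte sum ranged from 3.16% to 4.42% (Cre-, 30°C), 3.41% to 4.06% (Cre-, 8°C), 3.05% to 3.92% (BATdKO, 30°C) and 3.48% to 4.50% (BATdKO, 8°C), so the groups overlapped. Of the other lists, the 5 skeletal muscle markers in the table varied most, from 0.783 to 6301 CPM in sum, with the highest sums in m3 (6301 CPM) and m1 (2756 CPM) labelled Cre- at 30°C and medians at 8°C of 358 CPM (Cre-) and 42.4 CPM (BATdKO). The sum of the 5 endothelial markers was 117 to 139 CPM at 30°C and 147 to 206 CPM at 8°C in Cre-, and 123 to 156 CPM and 146 to 206 CPM in BATdKO. In the cold 3 of them passed as higher in Cre- (Pecam1, Kdr and Emcn) and 2 in BATdKO (Kdr and Emcn). Sums of macrophage markers (86.1 to 140.5 CPM), fibroblast and progenitor markers (115 to 297 CPM), white adipocyte markers (2.06 to 67.6 CPM) and the 1 lymphocyte marker in the table (8.01 to 26.1 CPM) overlapped between groups. Of the 5 fibroblast and progenitor markers, 1 passed as lower in the cold in Cre- and 2 in BATdKO, and 0 as higher. Of the 2 white adipocyte markers tested, Lep passed as lower in the cold under both labels, and 0 as higher. The part of these cells in the results below was not tested. Xist and the Y-linked gene Ddx3y were both above 0 in all 24 libraries. Ghr, Igf1, Igfals, Socs2 and Cish are also expressed by hepatocytes, and the part of liver-type RNA in the levels below was not tested. In bulk tissue, fewer cells of a type and less RNA per cell cannot be told apart. The total count per library ranged from 699703 (m4 labelled Cre- at 30°C) to 11527643, with a median of 6644365, and the second lowest total was 2738613 (m1 labelled BATdKO at 8°C).

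Because each transcript gives a single 3′ tag, CPM values were compared between genes without a correction for length. Ghr was the most abundant of the 9 genes, with a mean of 119 CPM over 24 libraries and a range of 104.8 to 139 CPM, which is a 1.33-fold span. Socs2 followed with a mean of 18.1 CPM and the range 5.47 to 38.8 CPM, so its highest library lay below the lowest library of Ghr. Stat5b (11.7 CPM), Socs7 (10.4 CPM), Socs4 (9.80 CPM) and Socs6 (9.28 CPM) came next, and their ranges overlapped. Cish had a mean of 5.15 CPM, Socs5 3.05 CPM and Socs3 1.67 CPM. Socs3 rested on 1 to 23 counts per library, so its level is imprecise in every mouse.

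**Figure D1:**
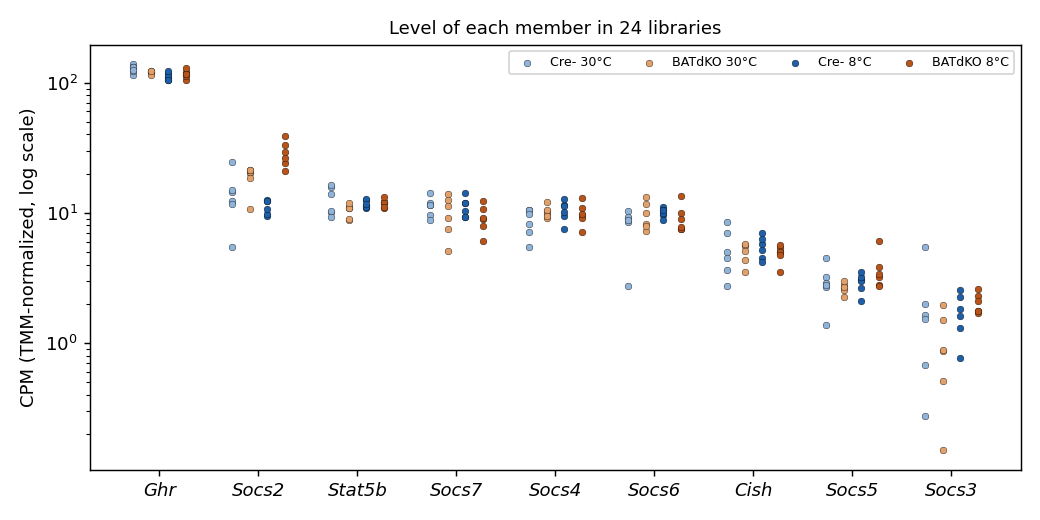
CPM of each of the 9 genes on a log axis, with 1 point per library and the 4 groups in separate columns. Ghr lies above 100 CPM in all 24 libraries, and Socs2 is the gene whose BATdKO libraries at 8°C stand above those labelled Cre- at 8°C. The choice of Socs2 used that difference.

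SOCS2 binds the phosphorylated growth hormone receptor and limits its signal. In mice labelled Cre- at 30°C, Socs2 was at 12.4, 14.5, 14.9, 5.47, 11.7 and 24.5 CPM in m1 to m6, with a median of 13.4 CPM. In mice labelled Cre- at 8°C, the lowest value was 9.53, the median 11.54 and the highest 12.6 CPM. The cold values lay inside the range of the warm ones, whose highest library was m6 and whose lowest was m4, with 4 counts of Socs2.

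In mice labelled BATdKO at 30°C, Socs2 ranged from 10.7 CPM in m6 to 21.2 CPM in m4, with a median of 20.3 CPM. At 8°C it was at 38.8, 24.1, 26.2, 20.9, 29.3 and 33.1 CPM in m1 to m6, with a median of 27.7 CPM. All 6 libraries labelled BATdKO at 8°C lay above all 6 labelled Cre- at 8°C. The choice of Socs2 used this difference, and 1.95% of all genes showed no overlap there. By group means, Socs2 was highest in BATdKO at 8°C (28.7 ± 6.46 CPM, SD, n = 6), then BATdKO at 30°C (18.7 ± 4.06), Cre- at 30°C (13.9 ± 6.20) and Cre- at 8°C (11.2 ± 1.39), and each group overlapped its neighbour in this order.

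**Figure D2:**
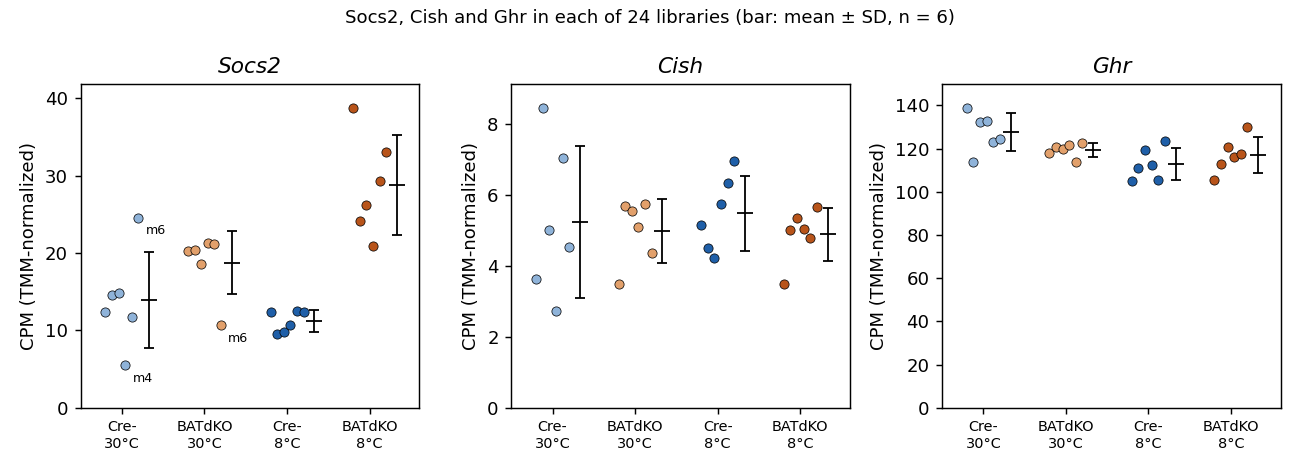
CPM of Socs2, Cish and Ghr in each library by group, with the mean and SD (n = 6) beside the points and each axis starting at 0. For Socs2 the BATdKO libraries at 8°C (20.9 to 38.8 CPM) do not meet the Cre- libraries at 8°C (9.53 to 12.6 CPM), whereas the groups overlap for Cish and Ghr. Socs2 was selected on these values and the other genes were not, so nothing is read from this contrast. Of all genes, 1.95% showed no overlap by genotype at 8°C.

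As a description, the fitted log2 fold change of Socs2 was 1.33 ± 0.19 (SE) for BATdKO against Cre- at 8°C and 0.32 ± 0.19 at 30°C. In the cold it was -0.42 ± 0.19 in Cre- and 0.59 ± 0.18 in BATdKO, so the fitted direction in the cold was opposite under the 2 labels. The fall in Cre- rested on m6 at 30°C: without both m6 libraries the Cre- means were 11.8 ± 3.78 CPM (n = 5) at 30°C and 11.2 ± 1.39 CPM at 8°C, and the log2 fold change was -0.20. Those near means also rested on m4, with its 4 counts: without m4 as well, Socs2 at 30°C was at 13.4 ± 1.56 CPM (n = 4, 11.7 to 14.9 CPM), against 9.53 to 12.6 CPM at 8°C, and the groups still overlapped. With only the 2 m6 libraries left out, Socs2 at 30°C was at 20.3 ± 1.06 CPM in BATdKO (n = 5). In Cre- it was at 11.8 ± 3.78 CPM (n = 5), with a log2 fold change of 0.66 between the labels. The m6 libraries were left out after their values were seen, and Socs2 was selected on these mice, so nothing is read from this difference. At 8°C the genotype log2 fold change stayed between 1.24 and 1.40 as each mouse was left out in turn. Since Socs2 was chosen for its higher level under the BATdKO label in these mice, this range is a description and no support.

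Socs2 followed the measured level of the floxed genes in both m6 libraries. The Cre- library m6 had Socs2 at 24.5 CPM beside 38.6 CPM of Tbl1xr1 and 53.5 CPM of Tbl1x, and the BATdKO library m6 had Socs2 at 10.7 CPM beside 17.0 CPM of Tbl1xr1 and 39.6 CPM of Tbl1x. In the other 5 libraries labelled Cre- at 30°C, Tbl1x ranged from 31.4 to 45.5 CPM. In the other 5 labelled BATdKO it ranged from 53.4 to 59.9 CPM. Both m6 libraries also stood apart from the rest of their groups for Ucp1. Ucp1 was at 548 CPM in m6 labelled Cre- at 30°C, against 28.9 to 133 CPM in the other 5. That value also lay above all libraries labelled BATdKO at 30°C. In m6 labelled BATdKO at 30°C, Ucp1 was at 84.7 CPM, against 217 to 412 CPM in the other 5. This value lay in the range of the other 5 labelled Cre-. Why these libraries differ from their labels was not tested.

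**Figure D3:**
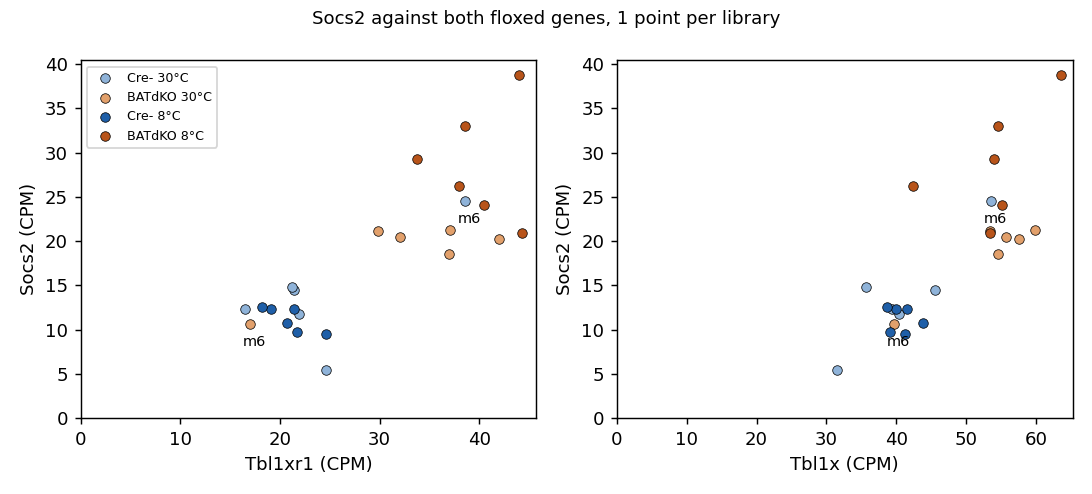
Socs2 against Tbl1xr1 (left) and Tbl1x (right), in CPM with 1 point per library. The Cre- library m6 lies among the BATdKO libraries (24.5 CPM of Socs2, 38.6 CPM of Tbl1xr1), and the BATdKO library m6 among the Cre- libraries (10.7 and 17.0 CPM).

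The genes with the most similar pattern to Socs2 were sought among 8547 genes with a mean of at least 5 CPM, by Pearson's r of log2 CPM over 24 libraries, which share their normalization, groups and series. With r on deviations from the group means beside it, they were Gngt2 (r = 0.92 and 0.80), Tbl1x (0.84 and 0.77), Dgat2 (0.84 and 0.67), Mrpl45 (0.84 and 0.74) and Glrx (0.83 and 0.76). Gngt2 encodes a G protein gamma subunit and overlaps exons of Abi3 on the other strand, and Dgat2 encodes an enzyme of triglyceride synthesis. Without both m6 libraries (n = 22) the paired values were 0.92 and 0.60 for Gngt2, 0.83 and 0.56 for Tbl1x, 0.83 and 0.30 for Dgat2, 0.82 and 0.46 for Mrpl45 and 0.86 and 0.77 for Glrx, so the likeness within groups of Dgat2 and Mrpl45 rested in part on those 2 libraries. For Tbl1xr1 the value within groups was 0.43 with them and -0.39 without them. Among the other members, r with Socs2 over all 24 libraries ranged from -0.40 (Stat5b) to 0.48 (Socs5). On deviations from the group means it was 0.64 for Socs6, 0.59 for Socs4, 0.45 for Socs5, 0.34 for Cish and 0.24 for Socs7. It was -0.05 for Socs3, -0.26 for Ghr and -0.61 for Stat5b. Without both m6 libraries it was 0.71 for Socs6, 0.69 for Socs5, 0.61 for Socs4, 0.46 for Cish and -0.04 for Socs7. For Socs3, Ghr and Stat5b it was then -0.38, -0.23 and -0.42. Socs6, Socs5 and Socs4 thus lay above Gngt2, Tbl1x, Dgat2 and Mrpl45 and below Glrx. In m4 labelled Cre- at 30°C, Socs2, Socs4, Socs5, Socs6 and Cish were lowest of the group, with 4, 4, 1, 2 and 2 counts. The part of m4 in these values was not tested. For Ghr, Rpl7 (0.75) and Rps27 (0.73), which encode ribosomal proteins, were among the most similar genes.

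None of the 8 other members passed an adjusted p of 0.1 (edgeR's quasi-likelihood test, Benjamini-Hochberg over all 12485 genes) in the cold in Cre- mice, where 5.57% of all genes passed as higher and 3.59% as lower. None passed in the cold in BATdKO, where 3.76% of all genes were higher and 3.31% lower. None passed for genotype at 8°C, where 0.697% were higher and 1.12% lower, or in the interaction of genotype and temperature, where 0.0961% passed in either direction. At 30°C 0% of all genes passed as higher and 0% as lower for genotype, so that comparison could not call a member. There DESeq2 called 90 of all genes, 0 of them among the 8 members, and 1303 of all genes had an unadjusted p under 0.05. At an unadjusted p under 0.05 the count among the 8 members was 1 for the cold in Cre- (Ghr), 1 for the cold in BATdKO (Socs3) and 0 in the other comparisons. Over all genes, 18.6% had an unadjusted p under 0.05 in the cold in Cre-, 17.2% in the cold in BATdKO, 9.24% for genotype at 8°C, 10.4% for genotype at 30°C and 8.05% for the interaction, so the members' counts did not exceed the background. DESeq2 called 1 member in the cold in Cre- (Ghr) and 0 in every other comparison.

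The members' median log2 fold change lay close to that of all genes: -0.03 against -0.02 for the cold in Cre-, -0.02 against -0.00 for the cold in BATdKO, and -0.02 against -0.00 for genotype at 8°C. For genotype at 30°C it was -0.18 against -0.01. Socs2 was the member whose groups did not overlap, and only for genotype at 8°C, where 1.95% of all genes showed no overlap. The rule that selected Socs2 used that contrast, so nothing is read from it. No member separated the groups in the cold in Cre- (2.93% of all genes), in the cold in BATdKO (2.99%) or by genotype at 30°C (0.296%).

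**Figure D4:**
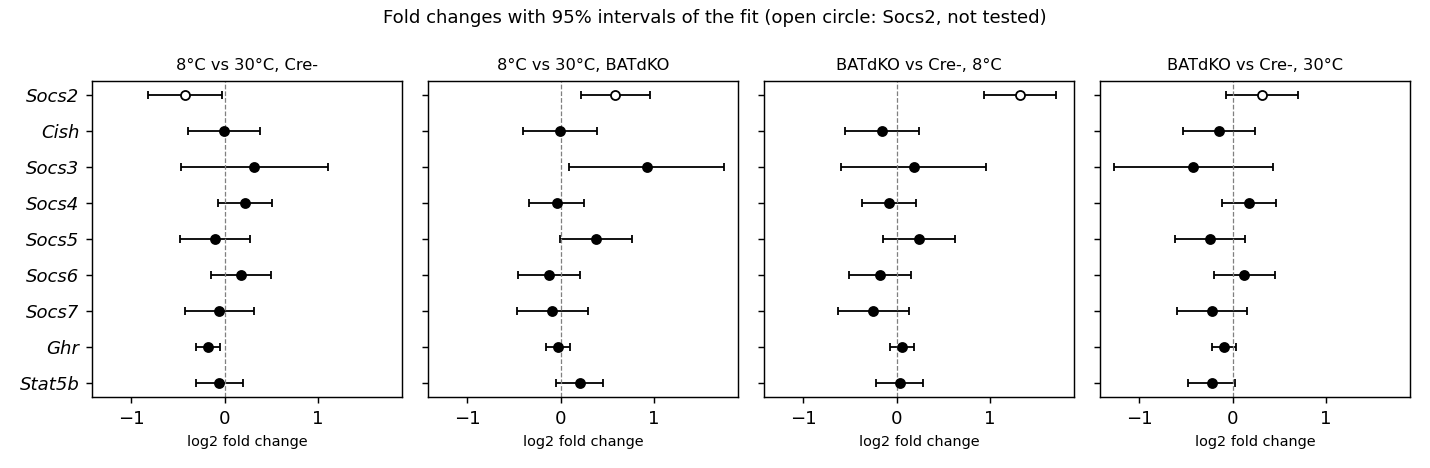
Log2 fold changes of the 9 genes with the 95% intervals of the fit, in the 4 comparisons. The intervals of the 8 tested genes (filled) include 0 except for Ghr in the cold in Cre- (-0.30 to -0.04) and Socs3 in the cold in BATdKO (0.09 to 1.76), neither of which passed the adjusted threshold. Socs2 (open) was selected on these values and not tested, so its intervals are a description only.

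Cish encodes CIS, the family member closest to SOCS2. Its values in mice labelled Cre- ranged from 2.73 to 8.46 CPM at 30°C (median 4.77) and from 4.22 to 6.96 CPM at 8°C (median 5.44). The lowest warm value was that of m4 and rested on 2 counts of Cish. Under the BATdKO label they ranged from 3.49 to 5.76 CPM at 30°C (median 5.33) and from 3.48 to 5.67 CPM at 8°C (median 5.02). All 4 groups overlapped. For genotype at 8°C, the log2 fold change of Cish was -0.15 with a 95% interval of -0.55 to 0.25 (adjusted p = 0.91, edgeR), and in the cold it was -0.01 (-0.39 to 0.38) in Cre- and -0.01 (-0.41 to 0.39) in BATdKO. The Pearson r between Socs2 and Cish over the 24 libraries was 0.11, and 0.34 on deviations from the group means, as a description.

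Socs3, the restraint of signals that pass through the interleukin-6 receptor subunit gp130, had 0.15 to 5.47 CPM. In BATdKO it ranged from 0.15 to 1.95 CPM at 30°C and from 1.70 to 2.61 CPM at 8°C. The log2 fold change in the cold was 0.92 ± 0.41 (SE, adjusted p = 0.23, edgeR) in BATdKO and 0.32 ± 0.39 (adjusted p = 0.73) in Cre-. Without m4 labelled BATdKO at 30°C, the BATdKO value was 1.36 with an adjusted p of 0.067.

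Socs4 and Socs5 are best known as restraints of the epidermal growth factor receptor, and Socs6 and Socs7 as binders of receptor kinases and their substrates. Their log2 fold changes in the 4 comparisons lay between -0.25 (Socs7, genotype at 8°C) and 0.38 (Socs5, the cold in BATdKO, adjusted p = 0.30, edgeR). For genotype at 8°C the 95% intervals were -0.37 to 0.21 for Socs4, -0.14 to 0.62 for Socs5, -0.51 to 0.15 for Socs6 and -0.63 to 0.13 for Socs7.

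Ghr, the receptor itself, was at 139, 114, 132.4, 132.6, 123.2 and 124.4 CPM in m1 to m6 labelled Cre- at 30°C, with a median of 128 CPM. In mice labelled Cre- at 8°C the lowest value was 104.8, the median 112 and the highest 123.7 CPM. The groups overlapped, since warm m2 (114 CPM) and m5 (123.2 CPM) lay below the highest cold library (123.7 CPM). The log2 fold change was -0.17 ± 0.06 (SE), and the adjusted p was 0.11 with edgeR, which misses the threshold, and 0.074 with DESeq2. In BATdKO, Ghr ranged from 114 to 122.7 CPM at 30°C and from 105.4 to 130.1 CPM at 8°C, with a log2 fold change of -0.03 ± 0.06 (adjusted p = 0.89, edgeR). The difference between both cold responses was 0.15 ± 0.09 (adjusted p = 0.69), so they were not shown to differ.

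Stat5b, which encodes the transcription factor downstream of the receptor, ranged from 8.77 to 16.4 CPM, a 1.87-fold span. Its log2 fold change was -0.05 (95% interval -0.31 to 0.20) in the cold in Cre-, 0.21 (-0.05 to 0.46) in the cold in BATdKO, 0.03 (-0.22 to 0.29) for genotype at 8°C and -0.23 (-0.48 to 0.03) at 30°C. The near-identical neighbour Stat5a was counted separately at group means of 5.72 to 7.08 CPM, and how tags shared by both were assigned is not given in the sources used here. Stat5a did not pass in any comparison.

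Of 51 further genes of the pathway, 46 were in the counts and 44 were tested. In the cold in Cre-, 3 passed as higher and 2 as lower, with a median log2 fold change over the 44 genes of -0.03. In the cold in BATdKO, 4 were higher and 1 lower, with a median of 0.03. For genotype at 8°C, 1 was higher and 1 lower, with a median of 0.00. For genotype at 30°C and for the interaction edgeR called 0, with 5 and 6 of the 44 at an unadjusted p under 0.05 (10.4% and 8.05% of all genes), and DESeq2 called 0 in both. The shares of all genes past the adjusted threshold are those given above. In the cold, groups did not overlap for Ptpn11 and Sh2b2 in Cre- (2.93% of all genes). In BATdKO this held for Bcl6, Pim1 and Ccnd1 (2.99% of all genes). For genotype at 8°C it held for Bcl6 (1.95% of all genes).

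Among the listed genes of phosphatases, SH2B adaptors and PIAS proteins, Sh2b2 encodes APS, an adaptor that binds JAK2 and the insulin receptor. In mice labelled Cre-, Sh2b2 ranged from 13.1 to 34.5 CPM at 30°C (median 26.2) and from 36.5 to 65.8 CPM at 8°C (median 53.3), without overlap. It rose in the cold by a log2 fold change of 0.97 ± 0.18 (SE, adjusted p = 0.00068, edgeR). In mice labelled BATdKO it ranged from 24.2 to 41.3 CPM at 30°C and from 24.6 to 38.6 CPM at 8°C, with a log2 fold change of 0.16 ± 0.18 (adjusted p = 0.71). The lowest warm Cre- library for Sh2b2 (13.1 CPM) and for Pim1 (35.4 CPM) was m3, which has the highest muscle marker sum, and without m3 both calls in the cold in Cre- were kept. At 8°C Sh2b2 was lower under the BATdKO label by -0.74 ± 0.18 (adjusted p = 0.030). The interaction was -0.80 ± 0.25 with an adjusted p of 0.34, so the cold responses were not shown to differ.

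Ptpn11, which encodes the phosphatase SHP2, rose from 36.0 to 45.1 CPM at 30°C to 52.2 to 63.2 CPM at 8°C in mice labelled Cre-, again without overlap (log2 fold change 0.53 ± 0.08, SE, adjusted p = 3.9e-05, edgeR). In BATdKO it was 41.1 to 53.7 CPM at 30°C and 47.5 to 59.7 CPM at 8°C, with a log2 fold change of 0.17 ± 0.08 (adjusted p = 0.25). The interaction had an adjusted p of 0.30. The other 9 listed genes of phosphatases, SH2B adaptors and PIAS proteins did not pass in any comparison.

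**Figure D5:**
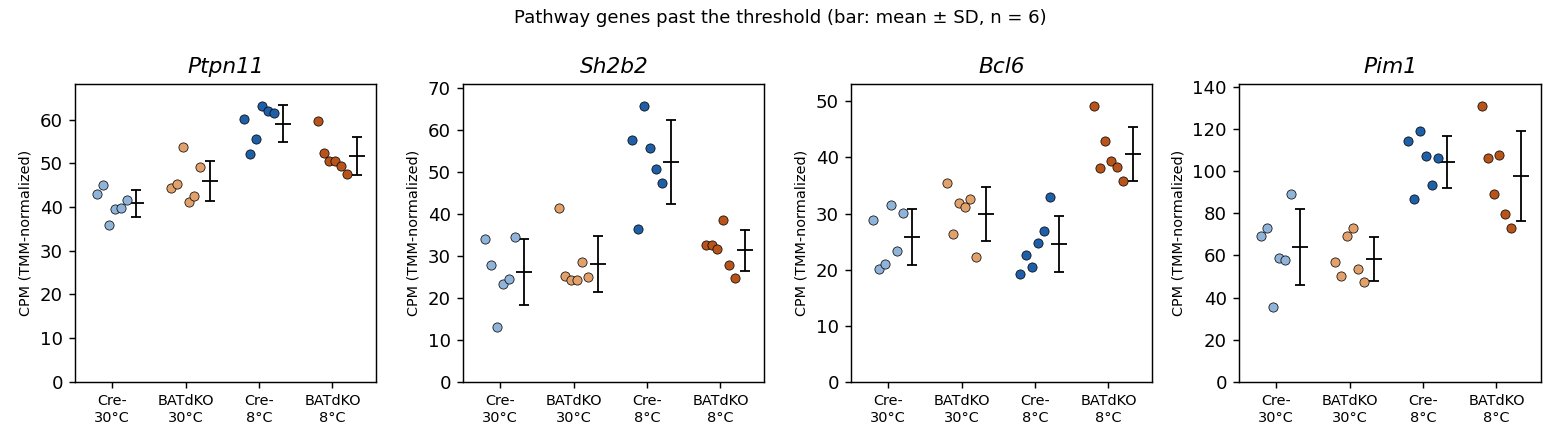
CPM of Ptpn11, Sh2b2, Bcl6 and Pim1 in each library by group, with the mean and SD (n = 6) and each axis starting at 0. Sh2b2 and Ptpn11 are separated by temperature in Cre- libraries, and Bcl6 and Pim1 in BATdKO libraries. Bcl6 is higher in BATdKO libraries at 8°C (35.8 to 49.2 CPM) than in Cre- libraries at 8°C (19.3 to 33.01 CPM). Pim1 has a higher mean at 8°C under both labels.

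Among the known STAT5 targets, Bcl6 encodes a repressor that binds DNA motifs resembling those of STAT5 and is repressed by STAT5 in liver. At 8°C it ranged from 19.3 to 33.01 CPM (median 23.7) in mice labelled Cre- and from 35.8 to 49.2 CPM (median 38.8) in those labelled BATdKO, without overlap. The log2 fold change was 0.71 ± 0.13 (SE, adjusted p = 0.0033, edgeR). In the cold, Bcl6 rose in BATdKO by 0.43 ± 0.13 (adjusted p = 0.054) and had a value of -0.03 ± 0.13 in Cre- (adjusted p = 0.95), and the interaction had an adjusted p of 0.51. The call in the cold in BATdKO was lost without m2 or m6 labelled BATdKO at 30°C or m1 or m3 at 8°C, with adjusted p up to 0.14.

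Bcl6 is shown by sequence because it was the STAT5-related gene that differed by genotype and has a start region in the RefSeq set. The STAT motif TTCNNNGAA, which reads the same on both strands in its fixed letters, was searched in the 250 bases before each annotated start (RefSeq, GRCm38.p6). It occurred in 7.02% of all 32851 windows, and 0.317% held more than 1. Windows were found for 6 of the 10 members (8 windows in all), and 1 of the 8, that of Socs3, held the motif. The first Bcl6 window holds 1 match and overlaps no annotated exon, and the second lies before another start within the gene and holds 3 matches. Matches are in capitals, and each sequence runs 5′ to 3′ on the minus strand.
Bcl6, chr16:23988853-23989102: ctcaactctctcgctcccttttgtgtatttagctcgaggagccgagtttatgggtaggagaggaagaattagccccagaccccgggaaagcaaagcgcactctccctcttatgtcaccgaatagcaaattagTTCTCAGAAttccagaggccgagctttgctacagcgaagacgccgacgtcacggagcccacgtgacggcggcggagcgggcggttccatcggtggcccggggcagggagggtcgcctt
Bcl6, chr16:23981284-23981533: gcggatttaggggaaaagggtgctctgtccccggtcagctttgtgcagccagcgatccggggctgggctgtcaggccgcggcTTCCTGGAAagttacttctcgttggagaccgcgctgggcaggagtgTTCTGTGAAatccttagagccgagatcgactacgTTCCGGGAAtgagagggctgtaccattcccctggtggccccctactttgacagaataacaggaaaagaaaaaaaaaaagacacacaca
Socs3, chr11:117969501-117969530: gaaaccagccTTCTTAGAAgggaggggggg

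A match describes letters in a window and was not tested as a site. The Socs3 match begins 154 bases before the RefSeq start, and its window overlaps an exon of Socs3 in the GENCODE annotation. The windows of Socs1, Socs4, Cish, Ghr and Stat5b held no match, nor did those of Igf1, Pim1, Sh2b2 and Ptpn11. Bcl6 was thus the only gene outside the members with a match among the 5 searched. The windows of Cish, Igf1 and Pim1 and the first windows of Ghr and Stat5b also overlap exons of those genes in GENCODE. That of Socs4 overlaps exons of Gm49150 and Wdhd1. The Cish window lies inside the GENCODE gene, so bases before the GENCODE start of Cish were not searched.

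Pim1, which encodes a survival kinase, rose in the cold under both labels, by 0.70 ± 0.16 (SE, adjusted p = 0.0080, edgeR) in Cre- and 0.74 ± 0.16 (adjusted p = 0.0062) in BATdKO, from group means of 64.0 ± 18.1 to 104.5 ± 12.3 CPM and from 58.4 ± 10.4 to 97.8 ± 21.4 CPM (SD, n = 6). Ccnd1 (cyclin D1) rose in BATdKO from 4.12 ± 0.80 to 6.75 ± 1.20 CPM (log2 fold change 0.71, adjusted p = 0.043), and this call was lost without m2 or m6 labelled BATdKO at 30°C or m4 at 8°C (adjusted p up to 0.13). In Cre- the Ccnd1 value was 0.42 with an adjusted p of 0.26. Igfals, which encodes the carrier subunit that holds IGF1 in serum, was 53.6 ± 9.96 CPM at 30°C and 43.8 ± 3.65 CPM at 8°C in Cre- (log2 fold change -0.29, adjusted p = 0.096). That call was lost in 22 of 31 alternatives, DESeq2 among them, with adjusted p up to 0.26. Igf1 itself had group means of 305.8 to 333.1 CPM and did not pass in any comparison (log2 fold change 0.05, 95% interval -0.09 to 0.20, for genotype at 8°C).

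Of the 11 cytokine receptors tested, Ifngr1 (interferon gamma receptor) was lower in the cold in Cre- (-0.35 ± 0.12, SE, adjusted p = 0.083, edgeR) and in BATdKO (-0.42 ± 0.12, adjusted p = 0.048). The Cre- call was lost in 10 of 31 alternatives, namely without m1, m2 or m5 labelled Cre- at 30°C, without any mouse labelled Cre- at 8°C and without m3 labelled BATdKO at 8°C (highest adjusted p = 0.23). The BATdKO call was lost in 4, without m1 or m6 at 30°C and without m2 or m6 at 8°C (highest adjusted p = 0.12). Il13ra1 was higher in the cold in BATdKO, at 3.26 ± 0.71 CPM at 30°C and 5.36 ± 1.83 CPM at 8°C (0.74 ± 0.21, adjusted p = 0.035), and its value in Cre- was -0.19 ± 0.21 (adjusted p = 0.70). Its interaction had an adjusted p of 0.34. Prlr, the prolactin receptor and nearest relative of Ghr in the list, had group means of 39.0 to 44.2 CPM and did not pass in any comparison.

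The 9 Janus kinases and STATs tested and the 5 subunits of the ligase that SOCS boxes recruit held no gene past the threshold in any comparison. Jak2, the kinase of the growth hormone receptor, had group means of 5.36 to 5.75 CPM, and its log2 fold change for genotype at 8°C was -0.04 (95% interval -0.33 to 0.26). The 5 ligase subunits had a median log2 fold change of 0.24 in the cold under both labels, with all 5 values above 0, beside medians of all genes of -0.02 and -0.00. Of these 5, 0 had an unadjusted p under 0.05 in either (edgeR), where 18.6% and 17.2% of all genes did, and DESeq2 called 0. With both m6 libraries at 30°C left out, 500 of all genes passed for genotype at 30°C where 0 had passed before, and 0 of the 8 tested members were among them.

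By GENCODE vM21 on GRCm38, Socs2 lies at chr10:95385362-95417180 on the minus strand, Ghr at chr15:3317760-3583492 (minus), Stat5b at chr11:100780731-100850724 (minus) and Cish at chr9:107296026-107302784 (plus). Exons of Cish overlap Gm17040 and Gm17041 on the other strand, and whether counting used strand is not given in the sources used here, so tags of these genes cannot be told apart. No exon of the other 8 counted members overlapped another gene's exon. Outside the members, exons of Bcl6 overlap Gm37419 and those of Pim1 overlap Gm26885 on the other strand, so the same limit holds for both.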

How the data were processed

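Per the study's methods, the authors trimmed 3′ tag reads (QuantSeq FWD) with BBDuk, aligned them to GRCm38 (STAR) and counted them with Rsubread. The deposited values are raw counts per gene, the unit used here. The submitters' processing notes also name DESeq2. The annotation release, the strand setting and the rule that removed low genes are not given in the sources used here. Column names gave each library's sample, and 12608 of 12615 identifiers matched a symbol.

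Tests used edgeR 4.0.16 and limma 3.58.1 under R 4.3.3. After TMM scaling and filterByExpr on the 4 groups (130 genes removed), all 24 libraries entered 1 quasi-likelihood fit with a term for each group. P-values were adjusted by Benjamini-Hochberg over all tested genes, with the study's threshold of 0.1. Log2 CPM used a prior count of 2. Both tools were first tested on simulated data. The depth of m4 labelled Cre- at 30°C limits its low genes to a few counts.

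Members, pathway lists and markers were chosen with earlier results of these data known. Genes named are all members, every pathway gene past the threshold in any comparison, the 5 genes most like Socs2 and 3 most like Ghr (1 of which is not reported here), and both floxed genes. Igf1, Prlr, Jak2 and Stat5a were named beside the members for their place in the pathway, after their values were seen. Alternatives were DESeq2 1.42.0, RLE scaling, no filter, robust dispersion, only the groups compared, and leaving out each mouse. Leaving out both m6 libraries at 30°C, alone or with m4, was added after seeing the data. Start regions were taken from RefSeq (GRCm38.p6).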

Additional observations from a re-analysis of the deposited data

Results flagged for a closer look

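For the 8 members other than Socs2, 3 of 32 sets of 6 libraries held a library separated from the other 5 by more than Dixon's 95% critical value, where chance gives about 1 in 20. Socs2 was selected on these values, so its case is a description only. Socs2 in m6 labelled BATdKO at 30°C was at 10.66 CPM (71 counts), below the other 5 at 18.6 to 21.2 CPM. This is the library whose Tbl1xr1 level lay in the range of the Cre- label. In m4 labelled Cre- at 30°C, the library with the lowest total, Socs3 was at 5.467 CPM (4 counts), above the other 5 at 0.276 to 1.98 CPM, and Socs6 was at 2.734 CPM (2 counts), below the other 5 at 8.46 to 10.4 CPM. Socs5 in m1 labelled BATdKO at 8°C was at 6.099 CPM (14 counts), above the other 5 at 2.74 to 3.83 CPM. That library has the second lowest total. The part of depth in these values was not tested.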

How the results depend on the processing

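For the 8 tested members, the count past the threshold in the cold in Cre- was 0 and became 1 (Ghr) with DESeq2, 1 with no filter on low counts and 1 without both m6 libraries at 30°C. Leaving out each mouse gave 0 to 1, with Ghr passing without m2 labelled Cre- at 30°C (adjusted p = 0.058), m6 labelled Cre- at 8°C (0.085) or m6 labelled BATdKO at 30°C (0.087). In the cold in BATdKO the range was 0 to 1 (Socs3, without m4 at 30°C). Among the pathway genes it was 3 to 6 for the cold in Cre- (main count 5) and 2 to 6 for the cold in BATdKO (main count 5). For genotype at 30°C it was 0 to 1, where Il6ra passed without m6 labelled Cre- (adjusted p = 0.098), and 1 (Il6ra) without both m6 and m4. For Socs2 the interaction fell from 1.01 to 0.66 (log2) without both m6 libraries. No called member reversed in direction under these alternatives. The calls of Sh2b2, Ptpn11 and Pim1, and those of Bcl6 for genotype at 8°C and Il13ra1, were kept in all 31 alternatives. No paired analysis was possible because mice of different groups share only single numbers that pair no animals. Counts limit Socs3, Socs5 and Cish most.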
